A study of Mus musculus with 16 samples.

Results

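Macrophages and other white blood cells in mouse quadriceps muscle were followed through 10 marker genes, *Ptprc*, *Cd68*, *Cd163*, *Csf1r*, *Mrc1*, *Lyz2*, *Itgam*, *Ccl2*, *Cd14* and *Cd3e*. They were taken from the deposited count table by gene symbol, and each symbol matched a single row of the 41388 genes listed. The mice were wild type (WT) or carried a deletion of exon 4 of *Mtm1* (*Mtm1* KO), a model of X-linked myotubular myopathy, and all were on a C57BL/6 background. *Mtm1* encodes myotubularin, a phosphoinositide phosphatase, and its loss leaves small, weak muscle fibers. Treated mice (WT + TAM and *Mtm1* KO + TAM) ate chow containing tamoxifen, a ligand of the estrogen receptor, at 40 mg/kg from day 21, and untreated mice (WT and *Mtm1* KO) did not. The labels give an age of 36 days for all 16 mice, 4 in each group. The deletion was made by homologous recombination and is not restricted to muscle, so that it is carried by immune cells as well.

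Of the 16 libraries, 14 were in the set that the study compared and form the main set here. It leaves out WT replicate 1 and *Mtm1* KO replicate 12, which leaves 3 untreated and 4 treated mice of each genotype. Library totals ran from 25116179 to 29847222 counts over the 16 libraries. Levels are given as CPM, counts scaled to a common library total, after TMM normalization, which scales libraries so that most genes do not differ. *Mtm1* was at 12.1 to 18.5 CPM in the 7 WT and WT + TAM libraries and at 1.76 to 3.02 CPM in the 7 libraries of both mutant groups (two-sided exact permutation test on the means, p = 5.83e-04, the smallest that 7 against 7 allows). The library labelled WT replicate 1, outside the main set, held 3.81 CPM of *Mtm1*, which goes against its label. It lay below the other WT libraries for 7 of the 10 markers and within their range for 3. Results are therefore also given with this library and *Mtm1* KO replicate 12 added. The 7 skeletal muscle fiber genes listed for comparison (such as *Myh4*, a fast myosin heavy chain, and *Ckm*, muscle creatine kinase) together made up 16.3% to 22.6% of the normalized counts in the wild-type libraries and 8.17% to 12.1% in the *Mtm1* KO libraries. The library labelled WT replicate 1 held 23.5%, on the wild-type side, so that its values point both ways. All 7 genes were lower in *Mtm1* KO in the average over drug, and 6 were called lower (edgeR, adjusted p of 0.01 or less), where 10.4% of all genes were. In whole tissue, fewer cells of a type and less RNA of that type per cell cannot be told apart.

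Each of the 10 genes has a defined role. *Ptprc* encodes CD45, a phosphatase on the surface of nearly all white blood cells. *Csf1r* encodes the receptor for CSF1 and IL-34, which macrophages need to survive. *Cd68* is a lysosomal membrane glycoprotein of macrophages, and *Lyz2* is lysozyme, secreted by macrophages, monocytes and granulocytes. *Mrc1* (CD206) is a mannose receptor and *Cd163* takes up haemoglobin bound to haptoglobin. Both are typical of macrophages resident in tissue or active in repair. *Itgam* (CD11b) is an integrin of monocytes, macrophages and neutrophils, and *Cd14* helps the receptor TLR4 to detect lipopolysaccharide. *Ccl2* is a secreted chemokine that draws monocytes through the receptor CCR2 and can be made by many cell types, muscle fibers included. *Cd3e* is part of the T cell receptor complex. In healthy skeletal muscle, resident macrophages lie in the connective tissue between the fibers, and monocytes enter after damage.

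The positions are from GRCm38 with GENCODE vM21. *Cd68* is on chromosome 11 from 69664213 to 69666153 on the minus strand, *Lyz2* on chromosome 10 from 117277331 to 117282321 on the minus strand, *Mrc1* on chromosome 2 from 14229392 to 14332057 on the plus strand, *Ptprc* on chromosome 1 from 138062861 to 138175708 on the minus strand and *Ccl2* on chromosome 11 from 82035571 to 82037453 on the plus strand. RefSeq promoter windows (GRCm38.p6) were matched by symbol for 7 of the 10 members, namely *Ptprc*, *Cd68*, *Cd163*, *Mrc1*, *Lyz2*, *Itgam* and *Cd3e*. The sequences just upstream of *Cd68*, *Lyz2* and *Mrc1* are shown because these genes stand for the range of genotype differences among the tested members with a window: *Cd68* rose about 2.83-fold, *Lyz2* missed the threshold and *Mrc1* had a log2 fold change of -0.01. The member with the largest fold, *Ccl2* (4.57), had no window. They are written 5′ to 3′ along the gene, without bases that GENCODE places in a transcript, and capitals mark AGGAAGT (an ETS-type core of the myeloid factor PU.1) or TGANTCA (AP-1), searched on both strands. In *Lyz2* and *Mrc1* the match is on the opposite strand, so that its reverse complement, ACTTCCT, stands in capitals.
Cd68 (chr11:69666171-69666420, minus strand): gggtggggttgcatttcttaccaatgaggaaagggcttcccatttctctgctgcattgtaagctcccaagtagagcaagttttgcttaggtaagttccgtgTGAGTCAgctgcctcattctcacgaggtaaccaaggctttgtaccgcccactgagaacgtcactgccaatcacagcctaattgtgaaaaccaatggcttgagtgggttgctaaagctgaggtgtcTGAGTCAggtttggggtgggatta
Lyz2 (chr10:117282322-117282522, minus strand): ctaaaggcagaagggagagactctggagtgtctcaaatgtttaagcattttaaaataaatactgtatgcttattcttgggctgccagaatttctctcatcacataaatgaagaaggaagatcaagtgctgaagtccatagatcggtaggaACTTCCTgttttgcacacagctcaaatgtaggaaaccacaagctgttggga
Mrc1 (chr2:14229164-14229391, plus strand): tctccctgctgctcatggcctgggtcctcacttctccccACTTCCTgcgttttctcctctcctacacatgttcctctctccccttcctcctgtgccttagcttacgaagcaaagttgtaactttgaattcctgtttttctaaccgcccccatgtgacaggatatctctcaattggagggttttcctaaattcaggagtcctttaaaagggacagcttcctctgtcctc
In the 250 bases before the RefSeq start, *Cd68* held 2 matches to TGANTCA, beginning at -149 and -24, and none to AGGAAGT. *Lyz2* and *Mrc1* each held 1 match to AGGAAGT, beginning at -100 and -211. *Ptprc* held AGGAAGT before both of its RefSeq starts, *Cd3e* held it once, at -18, and *Cd163* and *Itgam* held no match to either motif. Of all 32851 RefSeq windows of this length, 7.69% held AGGAAGT and 6.75% held TGANTCA. The motifs were picked with the sequences in view, and a match is a description of the letters only.

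Per length, *Lyz2* was by far the most abundant marker in every group. In RPKM as deposited, the mean in WT was 46.6 ± 3.95 (SD, n = 3) for *Lyz2*, 5.14 ± 1.16 for *Csf1r*, 4.89 ± 0.450 for *Mrc1*, 4.23 ± 1.57 for *Cd68*, 2.99 ± 0.965 for *Cd163*, 1.94 ± 0.124 for *Cd14*, 0.615 ± 0.547 for *Ccl2*, 0.605 ± 0.0852 for *Itgam*, 0.189 ± 0.0354 for *Ptprc* and 0.0660 ± 0.0746 for *Cd3e*. The ranges of *Csf1r*, *Mrc1*, *Cd68*, *Cd163* and *Cd14* overlapped from each gene to the next in this order, as did those of *Ccl2* and *Itgam*. The other neighbours in the WT order did not overlap. *Ptprc* ranked low on this scale while it had more counts per library than *Ccl2* in the 3 WT libraries. Its annotated exons total 18313 bases, against 1138 for *Ccl2*, and the gene length behind the deposited RPKM is not given in the sources used here. In *Mtm1* KO, *Cd68* came next after *Lyz2*, at 13.7 ± 5.65 RPKM (SD, n = 3), before *Csf1r* at 8.83 ± 1.302, and their ranges overlapped. In *Mtm1* KO + TAM, *Ccl2* stood just after *Mrc1* at 5.29 RPKM, with an SD of 4.50 (n = 4) that was nearly as large as the mean. *Cd3e* was last in all 4 groups.

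**Figure D1:**
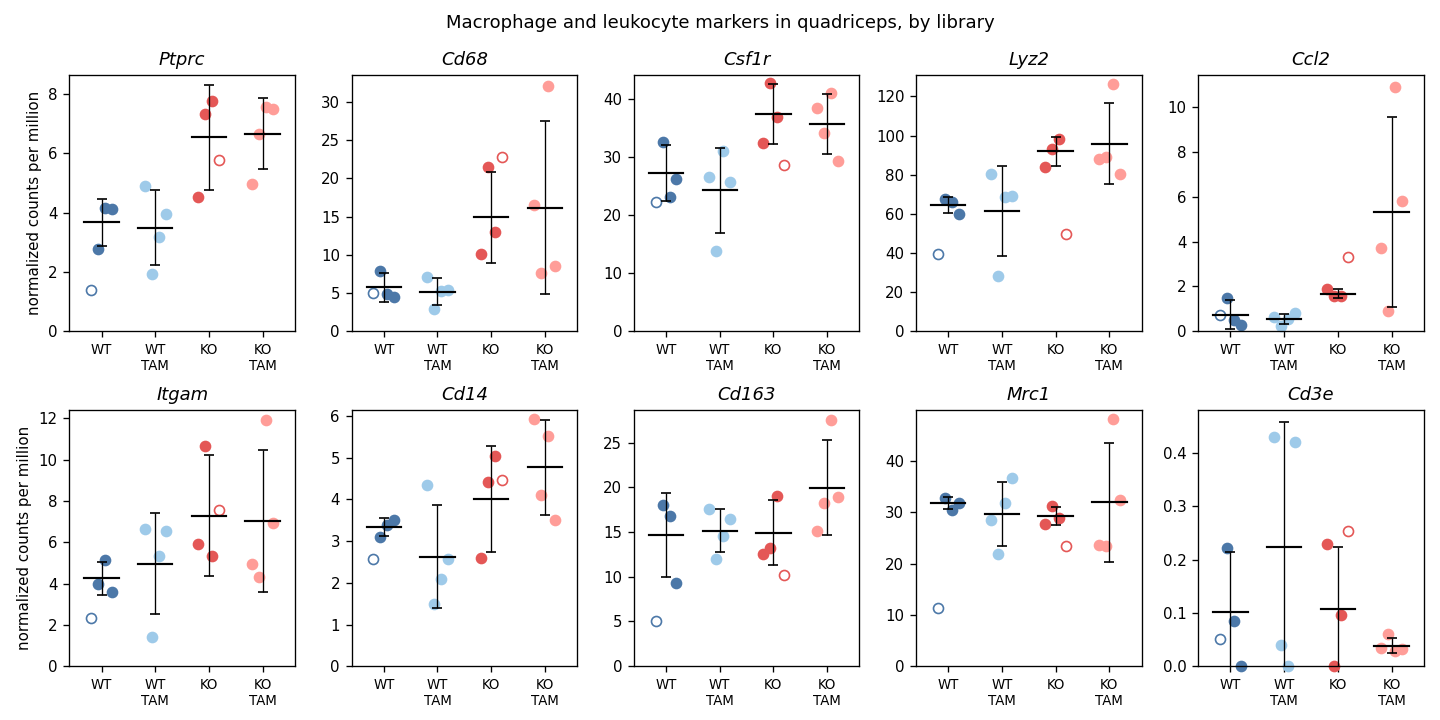
Normalized CPM (vertical axis, from 0, a separate scale for each gene) of the 10 markers in each library, by group. Filled points are the 14 libraries of the main set, open points the libraries labelled WT replicate 1 and *Mtm1* KO replicate 12, bars the mean of the filled points and whiskers 1 SD (cut at 0 for *Cd3e*). *Ptprc*, *Cd68* and *Ccl2* sit higher in KO and KO TAM than in the corresponding wild-type groups, while *Mrc1* stays between 21.9 and 48.2 CPM in the filled points of every group.

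*Mtm1* KO muscle held more *Cd68*, *Ptprc* and *Ccl2* RNA than wild-type muscle when libraries with and without tamoxifen were pooled. In this fit of all 14 libraries, which averages the genotype difference over the drug, *Cd68* was 2.83-fold higher, *Ptprc* 1.84-fold higher and *Ccl2* 4.57-fold higher. *Csf1r* (1.42-fold) and *Lyz2* (1.49-fold) stood between these and the markers of resident macrophages, and did not pass the threshold. The fold was 1.16 for *Cd163* and 1.00 for *Mrc1*. With edgeR's quasi-likelihood test and a Benjamini-Hochberg adjusted p of at most 0.01, 3 of the 9 members tested were called, all higher in *Mtm1* KO. Over all 15556 genes tested, 19.4% were called (8.99% higher and 10.4% lower). An unadjusted p of 0.05 or less was reached by 6 members and 43.7% of all genes, and an adjusted p of 0.05 or less by 5 members and 33.3% of all genes. The remaining member, *Cd3e*, did not pass the filter on low counts. The 9 members had a median log2 fold change of 0.58, and all genes tested one of 0.01. No member was free of overlap between all 7 *Mtm1* KO and all 7 wild-type libraries, a separation with *Mtm1* KO higher that 5.03% of all genes showed.

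*Cd68* had the lowest adjusted p of the members. It stood at 7.94, 4.87 and 4.49 CPM in WT and at 7.14, 2.94, 5.28 and 5.43 CPM in WT + TAM. In *Mtm1* KO it stood at 10.1, 21.5 and 13 CPM, and in *Mtm1* KO + TAM at 16.5, 7.57, 32 and 8.52 CPM. Of the 7 *Mtm1* KO libraries, 6 lay above all 7 wild-type libraries, and *Mtm1* KO + TAM replicate 14 lay just below WT replicate 2. The log2 fold change averaged over the drug was 1.503 ± 0.317 (SE, 95% interval 0.83 to 2.18, edgeR quasi-likelihood test, adjusted p = 0.00208). The call held on leaving out each library in turn, with log2 fold changes from 1.22 to 1.66. In untreated mice alone it was 1.39 ± 0.32 (SE, edgeR, adjusted p = 0.0234), and in treated mice 1.64 ± 0.43 (SE, edgeR, adjusted p = 0.0251), so that neither single comparison passed 0.01. The intervals of these were 0.68 to 2.10 and 0.69 to 2.59.

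*Ptprc*, the marker shared by nearly all white blood cells, was at 2.77, 4.15 and 4.13 CPM in WT, at 4.91, 1.93, 3.20 and 3.96 CPM in WT + TAM, at 4.52, 7.33 and 7.77 CPM in *Mtm1* KO and at 4.96, 6.67, 7.55 and 7.51 CPM in *Mtm1* KO + TAM. All *Mtm1* KO libraries lay above the WT libraries, and all *Mtm1* KO + TAM libraries above the WT + TAM libraries, the closest pair being 4.96 and 4.91 CPM. The log2 fold change was 0.88 ± 0.20 (SE, 95% interval 0.45 to 1.31, edgeR, adjusted p = 0.00364). This call was narrow. It was lost without WT replicate 2, *Mtm1* KO replicate 10 or *Mtm1* KO replicate 11 (edgeR, adjusted p = 0.0119, 0.0110 and 0.0117, lowest of the 14 values 0.00166), while the log2 fold change stayed from 0.78 to 0.99.

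*Ccl2* had the fewest counts of the 3 called members. Its counts were 40, 12 and 7 in the WT libraries, 15, 6, 13 and 19 in WT + TAM, 58, 48 and 49 in *Mtm1* KO and 111, 30, 388 and 177 in *Mtm1* KO + TAM. On the CPM scale the wild-type libraries ran from 0.241 to 1.48 and the *Mtm1* KO libraries from 0.901 to 10.9. The treated *Mtm1* KO libraries spread widely among themselves, with replicate 15 at the top and replicate 14 at the bottom. The log2 fold change averaged over the drug was 2.19 ± 0.48 (SE, 95% interval 1.18 to 3.21, edgeR, adjusted p = 0.0026). It was 1.17 ± 0.56 (SE, edgeR, adjusted p = 0.197) between *Mtm1* KO and WT, and 3.25 ± 0.65 (SE, edgeR, adjusted p = 0.00691) between *Mtm1* KO + TAM and WT + TAM. The last of these was the only call of a member in either single genotype comparison. It was lost on leaving out any of its 8 libraries but *Mtm1* KO + TAM replicate 14 (edgeR, adjusted p from 0.00114 to 0.0207), with log2 fold changes from 2.635 to 3.601.

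**Figure D2:**
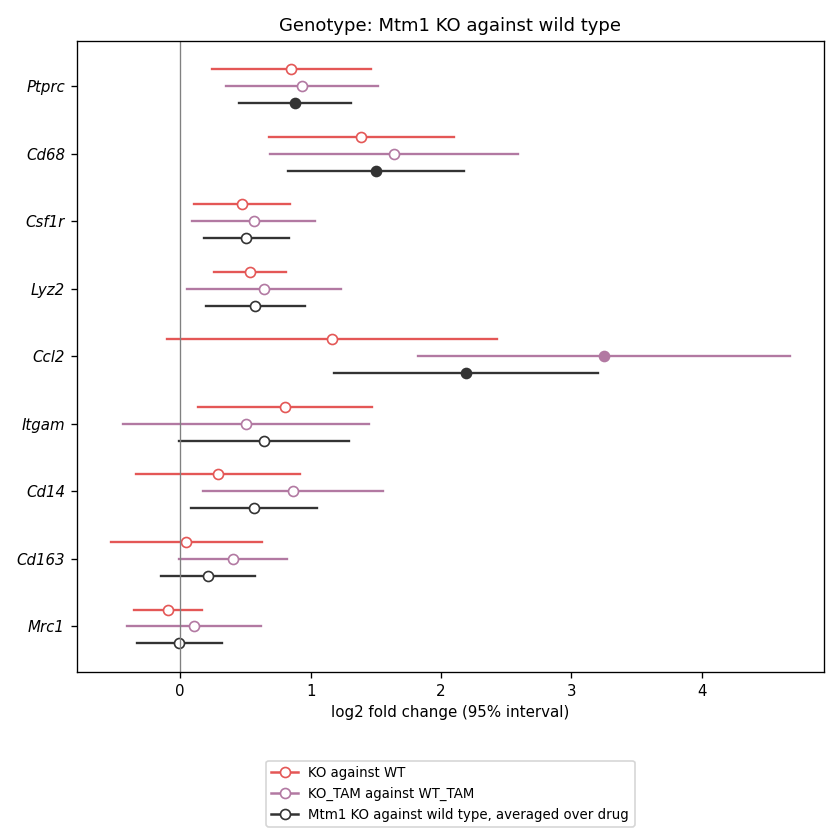
Log2 fold changes of the 9 markers tested (horizontal axis, with 95% intervals) for the genotype difference in untreated mice, in treated mice and averaged over both. Filled points were called (edgeR, adjusted p of 0.01 or less): *Ptprc*, *Cd68* and *Ccl2* in the average and *Ccl2* in treated mice. *Mrc1* sits at -0.01 in the average, and the interval of *Cd163* spans 0 in all 3.

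*Csf1r* and *Lyz2* leaned the same way with smaller differences. *Csf1r* was at 32.6, 23.1 and 26.3 CPM in WT, 26.5, 13.8, 31.1 and 25.7 CPM in WT + TAM, 32.4, 42.7 and 37.0 CPM in *Mtm1* KO and 38.5, 34.1, 41.1 and 29.3 CPM in *Mtm1* KO + TAM. Its log2 fold change averaged over the drug was 0.51 ± 0.15 (SE, edgeR, adjusted p = 0.0187). Only *Mtm1* KO + TAM replicate 16 and *Mtm1* KO replicate 9 fell below the highest wild-type library, WT replicate 2. *Lyz2* was at 67.8, 65.8 and 60.0 CPM in WT, 80.2, 28.2, 68.5 and 69.0 CPM in WT + TAM, 83.9, 93.4 and 98.4 CPM in *Mtm1* KO and 88.0, 89.2, 126 and 80.1 CPM in *Mtm1* KO + TAM. Its log2 fold change was 0.58 ± 0.18 (SE, edgeR, adjusted p = 0.0216), and without WT + TAM replicate 6 it was 0.46 and passed (edgeR, adjusted p = 0.00443, highest of the 14 values 0.05). The *Lyz2* groups touched at a single pair, WT + TAM replicate 5 at 80.2 CPM and *Mtm1* KO + TAM replicate 16 at 80.1 CPM. Of the 50-base stretches of *Lyz2* exons, 15.4% also occur in *Lyz1*, so that part of its reads may have been assigned to the paralog or left out. In *Csf1r*, 15.1% of exon bases overlap *Hmgxb3* on the other strand, and the strand setting of the counting is not given in the sources used here.

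*Itgam* and *Cd14* did not pass the test. *Itgam* was at 3.99, 5.16 and 3.59 CPM in WT, 6.63, 1.41, 5.33 and 6.52 CPM in WT + TAM, 5.92, 10.6 and 5.32 CPM in *Mtm1* KO and 4.96, 4.32, 11.9 and 6.92 CPM in *Mtm1* KO + TAM. Averaged over the drug, its log2 fold change was 0.64 ± 0.31 (SE, 95% interval -0.01 to 1.297, edgeR, adjusted p = 0.122), and it was 0.30 without WT + TAM replicate 6 and *Mtm1* KO + TAM replicate 15. In the treated mice alone the difference turned from 0.50 to -0.19 on the log2 scale when those libraries were left out. GENCODE places another gene model, *Gm49368*, over 68.7% of the exon bases of *Itgam* on the same strand, so that its counts are uncertain. *Cd14* was at 3.10, 3.39 and 3.51 CPM in WT, 4.35, 1.49, 2.09 and 2.57 CPM in WT + TAM, 2.58, 4.42 and 5.03 CPM in *Mtm1* KO and 5.93, 4.11, 5.53 and 3.51 CPM in *Mtm1* KO + TAM. Its log2 fold change was 0.57 ± 0.23 (SE, 95% interval 0.08 to 1.05, edgeR, adjusted p = 0.0661).

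The scavenger receptors of resident macrophages did not pass the test. *Mrc1* was at 32.9, 30.5 and 31.8 CPM in WT and at 27.6, 31.2 and 28.9 CPM in *Mtm1* KO. Under tamoxifen it was at 28.4, 21.9, 31.8 and 36.7 CPM in WT and at 23.6, 23.5, 48.2 and 32.3 CPM in *Mtm1* KO. The average log2 fold change was -0.01 ± 0.15 (SE, edgeR, adjusted p = 0.981) and the 95% interval ran from -0.33 to 0.32. The sign of this value depended on the scaling and on single libraries, and with scaling by library size alone it was 0.31, the same as the shift of the median over all genes under that scaling (0.31). *Cd163* was at 18.0, 16.8 and 9.32 CPM in WT, 17.5, 12, 14.5 and 16.5 CPM in WT + TAM, 12.6, 13.2 and 19.1 CPM in *Mtm1* KO and 15.1, 18.2, 27.6 and 18.9 CPM in *Mtm1* KO + TAM, with a log2 fold change of 0.21 ± 0.17 (SE, 95% interval -0.15 to 0.57, edgeR, adjusted p = 0.36). A ratio of 2 genes within a library does not depend on how libraries are scaled. The counts of *Cd68* per count of *Mrc1* ran from 0.134 to 0.252 in the 7 wild-type libraries and from 0.264 to 0.700 in the 7 *Mtm1* KO libraries, so that these ranges did not overlap. The ratio was 0.441 in the library labelled WT replicate 1, inside the *Mtm1* KO range, and 0.971 in *Mtm1* KO replicate 12. In the former, *Cd68* was at 5.00 CPM, within the range of the other WT libraries, and *Mrc1* at 11.3 CPM, below theirs. The other 5 ratios computed overlapped between wild-type and *Mtm1* KO libraries. *Csf1r* per *Mrc1* was 0.631 to 0.991 against 0.854 to 1.63, *Ptprc* per *Mrc1* 0.0843 to 0.173 against 0.157 to 0.284, and *Cd163* per *Mrc1* 0.293 to 0.617 against 0.422 to 0.775. *Cd68* per *Csf1r* was 0.170 to 0.270 against 0.222 to 0.779, and *Ccl2* per *Csf1r* 0.0104 to 0.0454 against 0.0264 to 0.265. These ratios were chosen after the levels had been seen and carry no test.

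*Cd3e* was nearly absent. The libraries held 6, 2 and 0 counts in WT, 10, 1, 0 and 10 in WT + TAM, 7, 0 and 3 in *Mtm1* KO and 1, 2, 1 and 1 in *Mtm1* KO + TAM. The means in CPM did not separate the genotypes (two-sided exact permutation test over 7 against 7 libraries, p = 0.245), and at so few counts a change of *Cd3e* could not be detected. Its partners in the receptor complex were as rare, with at most 1 count of *Cd3d* and 3 of *Cd3g* in the wild-type libraries and at most 5 and 6 in the *Mtm1* KO libraries. *Cd247*, the zeta chain of the same complex, had 18 to 56 counts in the wild-type libraries and 12 to 35 in the *Mtm1* KO libraries (log2 fold change -0.96 ± 0.28, SE, edgeR, adjusted p = 0.0172). Of the 13 T cell genes listed beside *Cd3e*, 6 were tested and 0 were called by edgeR. They pointed both ways, with 4 log2 fold changes above 0 and 2 below, from -1.06 to 2.51 (median 0.86). At an adjusted p of 0.05 or less 2 were higher, the T cell kinases *Lck* (2.51 ± 0.74 on the log2 scale, SE, edgeR, adjusted p = 0.0175) and *Zap70* (1.72 ± 0.54, SE, edgeR, adjusted p = 0.0234), and 2 were lower, *Cd247* and *Foxp3* (-1.06 ± 0.37, SE, edgeR, adjusted p = 0.0397), the transcription factor of regulatory T cells. These 4 were also those at an unadjusted p of 0.05 or less, which 43.7% of all genes reached. DESeq2 and limma called 1 and 2 of the 6 higher. Together the 13 genes held 64 to 161 counts in each library, so that these changes rest on low counts. In WT + TAM against WT, 3 of the 13 passed the filter, and the others only with *Mtm1* KO libraries in the fit.

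The genotype difference was also tested separately in untreated and in treated mice. In *Mtm1* KO against WT, 0 of 9 members were called by edgeR's quasi-likelihood test, where 3.6% of all 14740 genes tested were called, 1.91% higher. At an unadjusted p of 0.05 or less there were 5 members (*Ptprc*, *Cd68*, *Csf1r*, *Lyz2* and *Itgam*), against 30.1% of all genes, and at an adjusted p of 0.05 or less *Cd68* and *Lyz2*, against 12.8%. DESeq2 called 2 members, edgeR's exact test 1 and limma on RPKM 1. Of the 14740 genes these tools called 1678, 1452 and, for limma at pseudocounts of 0.1 and 1, 824 and 756. In *Mtm1* KO + TAM against WT + TAM, 1 of 9 members was called, where 6.72% of all 14563 genes tested were called, 3.42% higher, and 6 members were at an unadjusted p of 0.05 or less, against 32.3% of all genes. Here 3 members were at an adjusted p of 0.05 or less, against 17% of all genes, and 9 of 9 had a positive log2 fold change. In untreated mice, 8 of 9 did. The CPM of *Ptprc*, *Cd68*, *Lyz2*, *Itgam* and *Ccl2* did not overlap between *Mtm1* KO and WT, all higher in *Mtm1* KO, a separation shown by 17.4% of all genes. Between *Mtm1* KO + TAM and WT + TAM, *Ptprc*, *Cd68* and *Ccl2* did not overlap, a separation shown by 10.9% of all genes. For each of these 3 the two-sided exact permutation test gave p = 0.0286, the smallest that 4 against 4 allows, and 3 against 3 cannot go below p = 0.1.

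Tamoxifen did not change any of the 9 markers tested past the threshold. In *Mtm1* KO + TAM against *Mtm1* KO, edgeR's quasi-likelihood test called 0 of 9 members and 0 (0%) of 15062 genes. *Ccl2* was the 1 member at an unadjusted p of 0.05 or less, against 7.55% of all genes. Its log2 fold change was 1.66 ± 0.61 (SE, 95% interval 0.32 to 2.996, edgeR, adjusted p = 0.513), and leaving out 1 library moved it from 1.03 to 2.01. The other 8 members had log2 fold changes from -0.07 to 0.41, and the 95% interval of each of them spanned 0. For *Ptprc* the interval ran from -0.48 to 0.51, for *Cd68* from -0.87 to 1.10 and for *Csf1r* from -0.41 to 0.26. In WT + TAM against WT, edgeR called 0 of 9 members and 0.131% of 14544 genes, with 0 members at an unadjusted p of 0.05 or less (10.7% of all genes) and log2 fold changes from -0.44 to 0.23. Averaged over genotype, 0 of 9 members and 0.591% of 15556 genes were called, and again 0 members reached an unadjusted p of 0.05, against 14.1% of all genes. DESeq2 and limma called 0 members in each of these 3 comparisons. Of all genes, DESeq2 called 72 in *Mtm1* KO + TAM against *Mtm1* KO, 214 in WT + TAM against WT and 343 in the average over genotype. The exact test of edgeR also called 72 genes in the first of these, and 0 members.

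**Figure D3:**
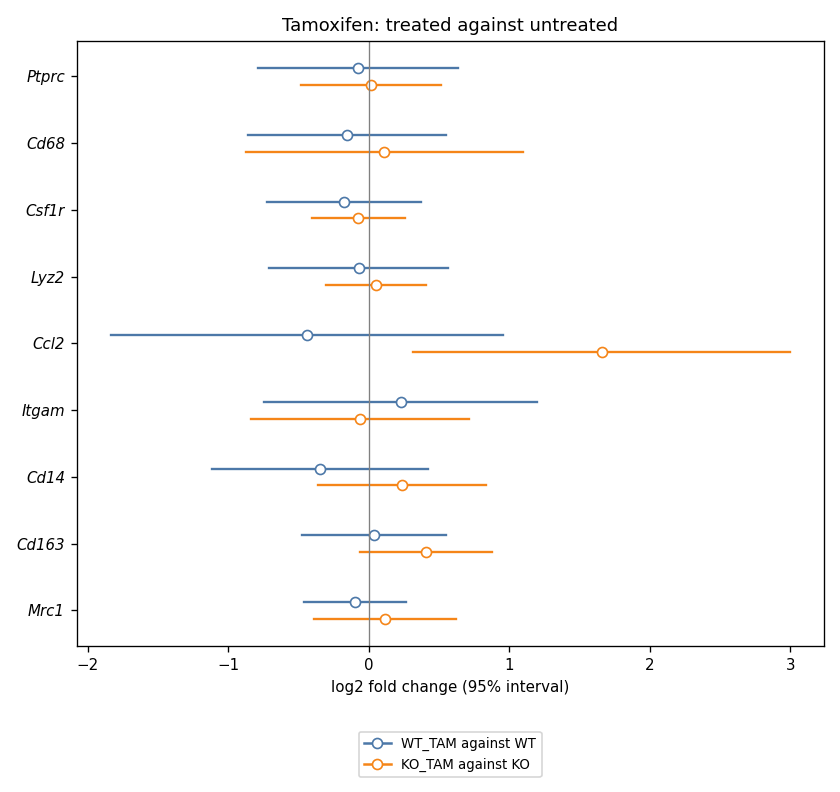
Log2 fold changes of the 9 markers tested (horizontal axis, with 95% intervals) in WT + TAM against WT and in *Mtm1* KO + TAM against *Mtm1* KO. All points are open, as 0 markers passed an adjusted p of 0.01, and the interval of *Ccl2* in *Mtm1* KO mice (0.32 to 2.996) is the only one that leaves out 0.

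Whether the drug acted differently in the 2 genotypes was tested as an interaction over all 14 libraries. edgeR called 0 of 9 members and 0 (0%) of 15556 genes, and DESeq2 and limma called 0 members. Of all genes, DESeq2 called 12. *Ccl2* had the largest difference among the members, 2.11 ± 0.95 on the log2 scale (SE, 95% interval 0.09 to 4.13, edgeR, unadjusted p = 0.0417, adjusted p = 1), and was the 1 member at an unadjusted p of at most 0.05, against 4.27% of all genes. The other 8 members ranged from -0.28 to 0.60.

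Some libraries were high or low for most markers at once. Among the 14 libraries, WT + TAM replicate 6 was the lowest for 8 of the 9 members tested, *Cd163* being the exception. *Mtm1* KO + TAM replicate 15 was the highest for 6 of the 9 and among the highest 3 for all 9. The summed level of the 10 markers was 84.0 CPM in the former and 311 CPM in the latter, against 143 to 226 CPM in the other 12 libraries. Without both libraries, *Cd68*, *Ptprc* and *Lyz2* were called in the average over drug and *Ccl2* was not, with log2 fold changes of 1.12, 0.75, 0.38 and 1.75 (edgeR, adjusted p for *Ccl2* 0.0109, with a range from 6.17e-06 to 0.0109 over the alternatives). The fit without both called 2198 of 15392 genes. *Mtm1* KO replicate 10 stood apart in another way. Its 10 listed neutrophil genes, among them the granule proteins *Ngp* (865 counts) and *Camp* (462 counts), which are made by granulocyte precursors, summed to 3282 counts, against 9 to 124 in the other 13 libraries. The 6 B cell genes listed summed to 512 counts there, against 5 to 44. *Ngp* and *Camp* were chosen after their values had been seen, and *Mtm1* KO replicates 9 and 11 held 0 counts of both. This library also stood next to the highest for *Itgam* and for *Cd68*. Without it the log2 fold change was 0.46 for *Itgam*, against 0.64 with it, and 1.32 for *Cd68*, against 1.503, and the call of *Cd68* held. The part of these granulocyte and B cell genes in the marker levels of that library was not tested.

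**Figure D4:**
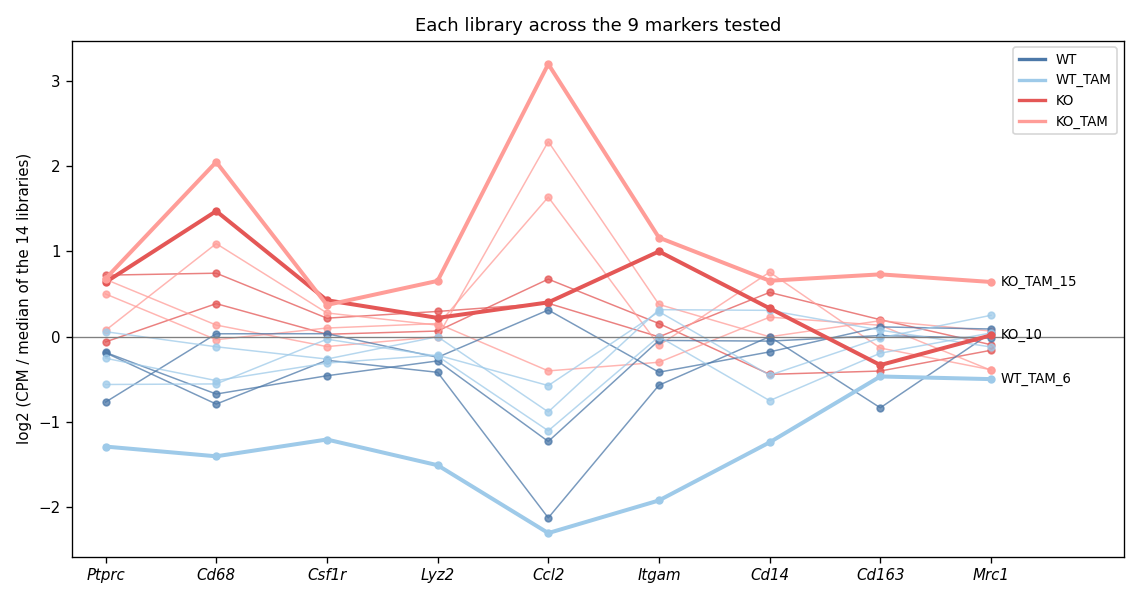
Log2 ratio of each library's CPM to the median of the 14 libraries (vertical axis) for the 9 markers tested, with 1 line for each library, coloured by group. WT + TAM replicate 6 runs lowest for 8 of the 9 markers and *Mtm1* KO + TAM replicate 15 highest for 6 of the 9.

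The genes whose profile over the 14 libraries was most like that of *Csf1r* were *Unc93b1* (Pearson's r = 0.963 on log2 CPM, over 14 libraries and 15388 genes), *Coro1a* (0.949), *Cotl1* (0.947), *C1qc* (0.941) and *Cyba* (0.941). *Coro1a* encodes coronin of white blood cells, *C1qc* a chain of complement C1q made by macrophages and *Cyba* a subunit of the phagocyte oxidase. For *Ptprc* they were *Utp11l* (0.933), *Ctss* (0.923), *Ppp4c* (0.919), *Txndc17* (0.917) and *Psd4* (0.917), of which *Ctss* is a lysosomal protease of antigen-presenting cells. The libraries share the genotype difference, so that these values describe likeness only.

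Beyond the 10 markers, 20 of 24 other macrophage genes had log2 fold changes above 0 in the average over drug. Of these 24, 11 were called higher and 0 lower (8.99% of all genes were called higher), and the median of the 24 log2 fold changes was 0.79. The 3 with the largest change were *Lgals3*, which encodes galectin-3 (5.53-fold, edgeR, adjusted p = 1.89e-05), *Trem2*, a lipid receptor (3.73-fold, edgeR, adjusted p = 0.0022), and *Cx3cr1*, the receptor for fractalkine (3.31-fold, edgeR, adjusted p = 0.00234). *Lgals3* ranged from 4.51 to 14.1 CPM in the wild-type libraries and from 17.8 to 66.4 CPM in the *Mtm1* KO libraries, without overlap. *Adgre1*, which encodes the classical macrophage antigen F4/80, was at 2.53 to 10.1 CPM in the former and 6.23 to 10.7 CPM in the latter (log2 fold change 0.26 ± 0.22, SE, edgeR, adjusted p = 0.38). Without *Mtm1* KO replicate 10 the count of called macrophage genes was 6 of 24, without *Mtm1* KO + TAM replicate 15 or WT replicate 2 it was 7, and without WT + TAM replicate 6 and *Mtm1* KO + TAM replicate 15 together it was 8. Of the 12 genes shared by most white blood cells, 4 were called higher and the other 8 had log2 fold changes above 0. The called genes with the largest change were *Cd52* (2.81-fold), *Coro1a* (2.39-fold) and *Lcp2* (1.92-fold), and the count was 1 without WT replicate 3 and 2 without WT replicate 2 or *Mtm1* KO replicate 10. *Itgb2*, the beta chain that pairs with *Itgam*, had a log2 fold change of 0.71 ± 0.26 (SE, edgeR, adjusted p = 0.0466).

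Genes of MHC class II, which presents antigen to T cells, were higher in *Mtm1* KO. All 7 listed had log2 fold changes above 0 and 5 were called, among them *H2-Aa* (2.45-fold, edgeR, adjusted p = 4.7e-04), *H2-DMb1* (2.43-fold, edgeR, adjusted p = 0.00448) and *H2-Eb1* (2.38-fold, edgeR, adjusted p = 3.6e-04). *H2-Aa* was at 8.97 to 33.5 CPM in the wild-type libraries and at 41.0 to 88.5 CPM in the *Mtm1* KO libraries. The count was 4 without WT replicate 2, WT replicate 3 or *Mtm1* KO replicate 10 and 5 without WT + TAM replicate 6 and *Mtm1* KO + TAM replicate 15. Of the dendritic cell genes, which share this function, 1 of 7 was called higher, *Flt3* (4.61-fold, edgeR, adjusted p = 7.84e-04), where 8.99% of all genes were. This count ran from 0 to 2 over the alternatives. Of the 7 genes, 4 passed the filter on low counts in WT + TAM against WT, and the others only with *Mtm1* KO libraries in the fit.

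The chemokine group around *Ccl2* held 17 tested genes, of which 5 were called higher and 1 lower, *Ccl2* itself not counted. In WT + TAM against WT, 13 of the group passed the filter on low counts, and the others only with *Mtm1* KO libraries in the fit. Of all genes, 8.99% were called higher and 10.4% lower. *Cxcl10*, a chemokine induced by interferon, was 11.4-fold higher (edgeR, adjusted p = 1.77e-06), with 2 to 18 counts in the wild-type libraries and 85 to 246 in the *Mtm1* KO libraries. *Cx3cl1*, the ligand of CX3CR1, was 8.69-fold higher (edgeR, adjusted p = 9.15e-06), at 1.16 to 4.84 CPM against 12.5 to 40.0 CPM. *Ccl12*, a close relative of *Ccl2*, was 6.80-fold higher (edgeR, adjusted p = 0.00663), but on 0 to 16 counts in the wild-type libraries, and its call was lost on leaving out any of 9 libraries. *Ccr2*, the receptor for CCL2, was 2.36-fold higher (edgeR, adjusted p = 0.0015), at 2.94 to 6.50 CPM against 5.50 to 20.4 CPM. The member called lower was *Cxcl14*, and the other called higher was *Ccl7*. The count of genes called higher was 3 without WT replicate 3 or 4, WT + TAM replicate 6 or 8, *Mtm1* KO replicate 10 or *Mtm1* KO + TAM replicate 13 or 15, and also without WT + TAM replicate 6 and *Mtm1* KO + TAM replicate 15 together.

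Around *Csf1r*, *Csf1* had a log2 fold change of 0.39 ± 0.13 (SE, edgeR, adjusted p = 0.0276), with 12.8 to 18.6 CPM in the wild-type libraries and 17.0 to 29.8 CPM in the *Mtm1* KO libraries, and *Il34* one of 0.20 ± 0.13 (SE, edgeR, adjusted p = 0.271). Of the 8 partners listed, 0 were called higher and 1 lower, the transcription factor *Maf* (fold 0.712, edgeR, adjusted p = 0.00263), where 10.4% of all genes were called lower and 8.99% higher, so that this count is near that of all genes. At an adjusted p of 0.05, 2 were higher. Scaling by library size alone called 5 of them higher. *Maf* was at 289 to 423 CPM in the wild-type libraries, where *Csf1r* was at 13.8 to 32.6 CPM. Whether its RNA came from macrophages was not tested. Around *Cd14*, the receptors *Tlr2* (3.81-fold, edgeR, adjusted p = 3.01e-06) and *Tlr4* (2.56-fold, edgeR, adjusted p = 2.29e-05) rose and the adaptor *Tirap* fell (fold 0.567, edgeR, adjusted p = 4.4e-04), and of 9 genes tested 3 were called higher and 1 lower. *Tlr4* was at 2.50 to 4.33 CPM in the wild-type libraries and at 5.89 to 11.1 CPM in the *Mtm1* KO libraries. *Ly96* (MD-2), which binds lipopolysaccharide together with TLR4, had a log2 fold change of 0.15 ± 0.30 (SE, edgeR, adjusted p = 0.726). Around *Cd163*, the iron exporter *Slc40a1* fell (fold 0.463, edgeR, adjusted p = 2.18e-05), at 14.6 to 30.4 CPM against 9.62 to 11.8 CPM, while *Lrp1* (1.41-fold) and *Ftl1* (1.38-fold) rose, and 3 of 8 genes tested were called in all. Without WT replicate 3, WT replicate 4 or *Mtm1* KO replicate 10, 1 gene of this list was called higher.

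Of the 12 genes used to describe inflammatory or repair-type macrophages, 6 were tested and 2 were called, *Spp1* (osteopontin; 7.86-fold, edgeR, adjusted p = 3.3e-05) and *Tgfb1* (2.28-fold, edgeR, adjusted p = 6.58e-06). *Tgfb1* was at 8.20 to 14.4 CPM in the wild-type libraries and 20.4 to 28.6 CPM in the *Mtm1* KO libraries. Other white blood cells showed few calls. None was called among 1 B cell gene, 2 natural killer cell genes and 5 mast cell genes tested with edgeR. All of these had log2 fold changes above 0, and 1, 1 and 1 reached an unadjusted p of 0.05 and also an adjusted p of 0.05. In WT + TAM against WT, 0 natural killer cell genes passed the filter on low counts. The 2 tested here passed it only with *Mtm1* KO libraries in the fit, so that their direction was partly set by the filter. DESeq2 called 1 B cell gene and 1 mast cell gene higher and limma 1 natural killer cell gene and 1 mast cell gene. Of all 15556 genes, DESeq2 called 1921 higher and limma 4518 or 4516 (pseudocount 0.1 or 1). Of the 10 neutrophil genes, 4 were tested, all with log2 fold changes above 0 (median 2.35), and 1 was called, *S100a8* (8.99% of all genes were called higher). All 4 were at an unadjusted p of 0.05 or less and 3 at an adjusted p of 0.05 or less, against 43.7% and 33.3% of all genes. In WT + TAM against WT, 1 of the 10 neutrophil genes passed the filter on low counts. The others passed it only with *Mtm1* KO libraries in the fit, so that their direction and these counts were partly set by the filter. The call of *S100a8* was lost without WT replicate 3, WT replicate 4 or *Mtm1* KO replicate 10, the library with by far the most neutrophil counts. The count of called neutrophil genes ran from 0 to 3 over the alternatives. Among cells of the muscle itself and its vessels, 0 of 6 fat cell and 0 of 5 red blood cell genes were called by edgeR, with 0 at an unadjusted p of 0.05 in either list. Of 7 endothelial genes 1 was called lower (*Tek*) and of 4 smooth muscle genes 2 (*Myh11* and *Acta2*), where 10.4% of all genes were. The calls of these 3 genes were lost with limma and with library size scaling, under which *Acta2* moved from -0.44 to -0.13 on the log2 scale, and those of *Tek* and *Myh11* also with 16 libraries. *Myh11* was lost without WT replicate 2 or *Mtm1* KO replicate 10 as well. Of 7 fibroblast genes 2 were called higher (*Lum*, 1.45-fold, and *Pdgfra*, 1.33-fold). With the libraries labelled WT replicate 1 and *Mtm1* KO replicate 12 added, 0 of the fibroblast genes were called higher, and with limma or library size scaling 5 were. The count was 4 with DESeq2 or no filter, 3 without WT + TAM replicate 5 or *Mtm1* KO replicate 9, and 1 without WT + TAM replicate 6 and *Mtm1* KO + TAM replicate 15 together or without WT replicate 3 or 4, WT + TAM replicate 7 or *Mtm1* KO replicate 11. Whether any of these lists moved with the markers for a shared reason was not tested. In *Mtm1* KO + TAM against *Mtm1* KO, 0 genes were called, but all 7 MHC class II genes were lower. Of these, 4 were at an unadjusted p of 0.05 or less, against 7.55% of all genes. Of the 12 genes of most white blood cells 11 were lower, and of the 24 other macrophage genes 14 were higher and 10 lower. In the tamoxifen effect averaged over genotype, 1 of 17 chemokine genes was called higher and 1 lower, against 0.591% of all genes.

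**Figure D5:**
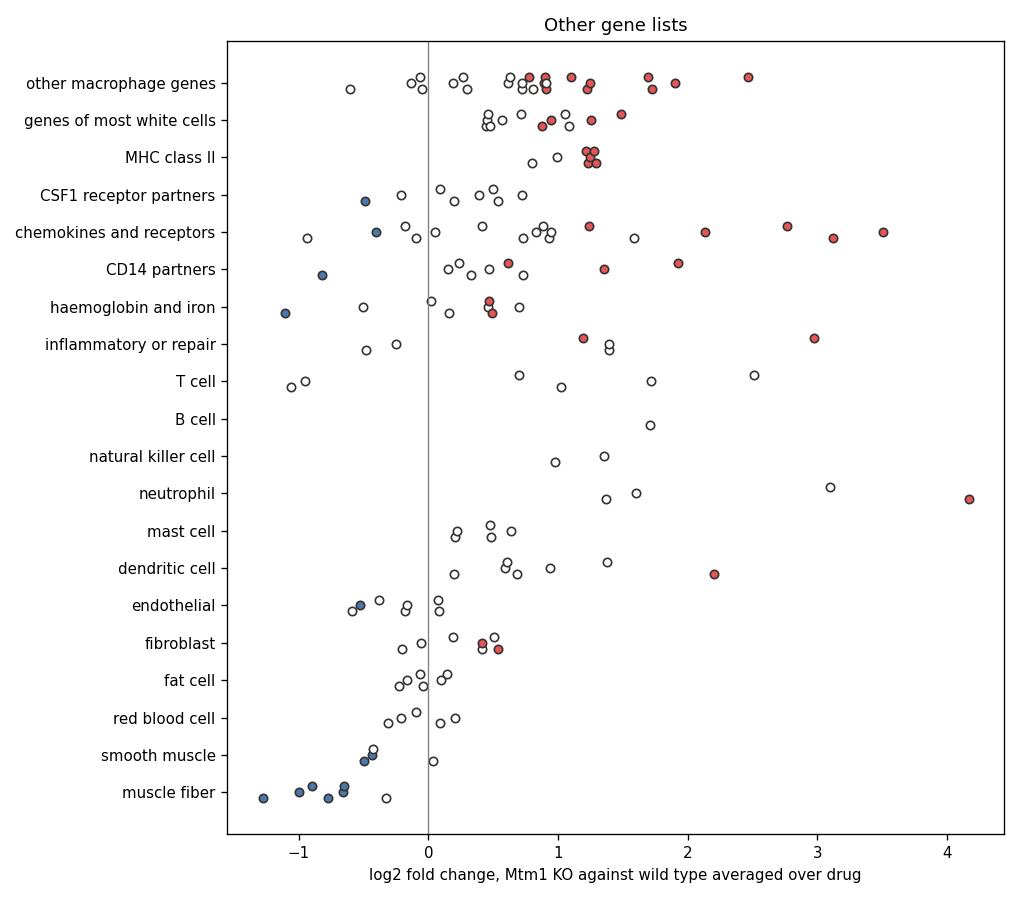
Log2 fold change of *Mtm1* KO against wild type averaged over drug (horizontal axis) for each tested gene of the comparison lists, with 1 row for each list. Red points were called higher and blue points lower (edgeR, adjusted p of 0.01 or less), and open points were not called. Points of the macrophage, white cell and MHC class II lists lie mostly to the right of 0, and 6 of 7 muscle fiber genes were called lower.

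The scaling of the libraries bears on all of these counts. With TMM, 1398 of the 3013 genes called in the average over drug were higher in *Mtm1* KO, and with scaling by library size alone 4538 of 5100 were. All genes then had a median of 0.31 on the log2 scale, and the members shifted with it, to 0.81 for *Csf1r*, 0.89 for *Lyz2* and 0.88 for *Cd14*, so that 6 members were called. With all 16 libraries, 3 members were called, *Ptprc*, *Cd68* and *Ccl2*, with log2 fold changes of 0.98, 1.62 and 2.35, where 2143 of 15389 genes were called.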

How the data were processed

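RNA of quadriceps muscle from 16 mice, each its own library by the labels, was sequenced from TruSeq libraries. The authors aligned to GRCm38 and counted with HTSeq, and per the labels their tools were bcl2fastq 2.17, STAR 2.5.0c and Cufflinks 2.2.1. The sources used here do not give the annotation or the strand setting. Raw counts and RPKM are the deposited units. CPM carry TMM factors over 16 libraries. Raw counts were tested with edgeR 4.0.16 in R 4.3.3 (quasi-likelihood test, TMM, filterByExpr with minimum count 10 and minimum total 15, Benjamini-Hochberg adjustment over all genes tested, threshold 0.01), pairwise, and in 1 fit of 4 groups for averages and the interaction. Exact permutation tests (SciPy 1.17.1) were two-sided. The alternatives comprised DESeq2 1.42.0, the exact test of edgeR, limma 3.58.1 on log2 RPKM with a pseudocount of 0.1 or 1, other scalings and filters, 1 fit of all groups, a threshold of 0.05, 16 libraries and each library left out. Leaving out WT + TAM replicate 6 together with *Mtm1* KO + TAM replicate 15 was added after seeing the data. The tests were also run on simulated counts with known large changes, equally many up and down. That run does not cover smaller changes or a shift in composition, and its outcome is not given here. Members, lists and tests were chosen with earlier results of these data known. Named were the 10 members, fixed partners, up to 3 called genes of each other list with the largest change, and the 5 profiles most like *Csf1r* and *Ptprc*. Other named genes were chosen after their values were seen. Exon positions are from GENCODE vM21. Another comparison list is not reported here.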

Additional observations from a re-analysis of the deposited data

Results flagged for a closer look

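Of 40 groups of 4 libraries tested (10 markers in 4 groups, all 16 libraries), 3 held a library set far apart from the others by Dixon's test, where chance marks about 1 in 20 groups. *Cd68* in WT replicate 2 stood at 7.94 CPM, against 4.49 to 5.00 CPM in the other WT libraries. *Mrc1* stood at 11.3 CPM in the library labelled WT replicate 1, which is outside the main set and low in *Mtm1*, against 30.5 to 32.9 CPM in the other WT libraries. *Cd3e* in *Mtm1* KO + TAM replicate 14 stood at 0.0600 CPM, which is 2 counts, against 0.0281 to 0.0333 CPM, or 1 count each, in the other libraries of that group.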

How the results depend on the processing

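Counts of members called depended on the tool. For *Mtm1* KO against WT (0 in the main test) the count was 2 at an adjusted p of 0.05 and with DESeq2, and 1 with edgeR's exact test, limma at either pseudocount, library size scaling and no filter. Of all 14740 genes, 531 were called in the main test, 1885 at 0.05, 1678 with DESeq2 and 1452 with the exact test. With limma 824 and 756 were called (pseudocounts 0.1 and 1), with library size scaling 1163 and without a filter 1096 of 22672. For *Mtm1* KO + TAM against WT + TAM (1) it was 3 at 0.05, with the exact test and with library size scaling, 2 with DESeq2 and no filter, and 0 with limma at pseudocount 1, with a filter of 10 counts in every library (which leaves out *Ccl2*) and without WT + TAM replicate 6 and *Mtm1* KO + TAM replicate 15. Of all 14563 genes, 979 were called in the main test, 2476 at 0.05, 1826 with the exact test and 1874 with library size scaling. DESeq2 called 1995 and limma at pseudocount 1 called 1616. No filter gave 1243 of 22907, 10 counts in every library 892 of 13002, and leaving out those 2 libraries 308 of 14587. For the average over drug (3) it was 5 at 0.05, with DESeq2 and no filter, and 6 with limma at either pseudocount and library size scaling. Of all 15556 genes, 3013 were called in the main test, 5180 at 0.05 and 3939 with DESeq2. With limma 5070 and 5062 were called (pseudocounts 0.1 and 1), with library size scaling 5100 and without a filter 3063 of 24117. Leaving out 1 library gave 0 to 1 in treated mice and 2 to 4 in the average, where those fits called 424 to 921 and 2300 to 3131 of all genes. The tamoxifen comparisons and the interaction gave 0 members under every alternative run.

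Directions (log2 fold changes) turned as follows in the genotype comparisons and, for *Ccl2* and *Cd163*, under tamoxifen. *Mrc1* in *Mtm1* KO against WT was 0.21 and 0.18 with limma at pseudocounts 0.1 and 1, 0.22 with library size scaling and 0.085 with 16 libraries. In the average over drug *Mrc1* was 0.0016 with DESeq2, 0.28 and 0.24 with limma, 0.0017 with RLE, 0.31 with library size, 0.0027 without a filter, 0.0041 with 10 counts in every library and 0.082 with 16 libraries, and -0.14 to 0.066 on leaving out 1 library. Without WT + TAM replicate 6 and *Mtm1* KO + TAM replicate 15, *Mrc1* was -0.29 and *Itgam* -0.19 in treated mice, and *Ly96* was -0.062 in the average. Leaving out 1 library moved *Cd163* from -0.20 to 0.22 and *Mrc1* from -0.15 to 0.25 in untreated and treated mice, and in WT + TAM against WT *Ccl2* from -0.84 to 0.53 and *Cd163* from -0.20 to 0.22. Counting all 9 members tested, the direction turned under at least 1 alternative for 6 members in *Mtm1* KO + TAM against *Mtm1* KO, 7 in WT + TAM against WT, 6 in the average of tamoxifen and 6 in the interaction, for example *Mrc1* from 0.11 to -0.16 and from -0.10 to 0.16 in the first 2. The causes were not tested. Low counts limit *Ccl2* and *Cd3e*. The study describes the RNA samples as coming from littermates, but the labels give no litter. Litter was therefore not modelled, and no paired analysis was possible.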
